A study of Mus musculus with 20 samples.

Results

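The BCL2 family was followed through 10 genes, chosen by gene symbol from the 55367 genes in the count files. They were 6 genes that promote cell death (Bax, Bak1, Bbc3, Pmaip1, Bid and Bcl2l11) and 4 that oppose it (Bcl2, Bcl2l1, Bcl2l2 and Mcl1). Polyadenylated RNA was sequenced from left atria and left ventricles of C57BL/6J pups at postnatal day 4, after breathing 100% oxygen (hyperoxia) or 21% oxygen (room air) since birth. The 4 groups were hyperoxic atrium, room-air atrium, hyperoxic ventricle and room-air ventricle, with 5 libraries each, and the series text states that each number within a group stands for 1 mouse. Pups of both oxygen groups were nursed by dams that changed daily between the atmospheres. Whether an atrium and a ventricle of the same number came from the same pup was not stated. All 10 genes had reads in every library and passed the filter on low counts.

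Proteins of this family decide whether the outer membrane of the mitochondrion stays closed. Bax and Bak1 are the effectors that form pores in it, after which cytochrome c leaves and caspases are activated. The anti-death members Bcl2, Bcl2l1 (BCL-XL), Bcl2l2 (BCL-W) and Mcl1 bind the effectors and their activators, and the BH3-only proteins Bbc3 (PUMA), Pmaip1 (NOXA), Bid and Bcl2l11 (BIM) bind the anti-death members or activate the effectors directly. Bax, Bbc3 and Pmaip1 are well known transcriptional targets of p53, Bcl2l11 is a target of FOXO factors, and the death of heart muscle cells is held in check by Mcl1 and Bcl2l1.

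The windows before the gene starts are shown for 4 of the pro-death members that changed in the atrium, of which 3 were higher and 1 was lower. Pmaip1, which also changed there, is not among them. Each holds 250 bases before and 50 after an annotated start, on the strand of the gene, from RefSeq on GRCm38.p6. Capitals mark a match to the p53 half-site or to the E-box CACGTG, and of these 4 windows only that of Bax holds any. The windows lie at chr7:45466849-45467148 on the minus strand for Bax, chr7:16309333-16309632 on the plus strand for the first of 3 starts of Bbc3, chr6:120916775-120917074 on the minus strand for Bid and chr2:128125788-128126087 on the plus strand for the first of 2 starts of Bcl2l11.
Bax: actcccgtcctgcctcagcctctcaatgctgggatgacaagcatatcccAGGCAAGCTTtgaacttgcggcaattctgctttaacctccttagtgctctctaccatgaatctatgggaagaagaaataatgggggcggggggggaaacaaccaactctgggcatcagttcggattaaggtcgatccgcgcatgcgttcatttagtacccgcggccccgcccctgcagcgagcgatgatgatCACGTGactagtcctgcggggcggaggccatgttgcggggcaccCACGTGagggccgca
Bbc3: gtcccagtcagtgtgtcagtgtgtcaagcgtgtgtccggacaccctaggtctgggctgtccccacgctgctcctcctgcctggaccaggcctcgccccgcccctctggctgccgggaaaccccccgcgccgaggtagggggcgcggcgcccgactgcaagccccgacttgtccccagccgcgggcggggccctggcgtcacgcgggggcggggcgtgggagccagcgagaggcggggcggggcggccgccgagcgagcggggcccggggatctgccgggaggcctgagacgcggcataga
Bid: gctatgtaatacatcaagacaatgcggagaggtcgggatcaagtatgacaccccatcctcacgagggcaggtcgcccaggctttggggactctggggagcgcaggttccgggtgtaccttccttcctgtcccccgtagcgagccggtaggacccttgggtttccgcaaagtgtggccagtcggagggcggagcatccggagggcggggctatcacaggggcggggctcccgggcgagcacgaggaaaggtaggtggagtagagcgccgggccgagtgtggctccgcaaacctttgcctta
Bcl2l11: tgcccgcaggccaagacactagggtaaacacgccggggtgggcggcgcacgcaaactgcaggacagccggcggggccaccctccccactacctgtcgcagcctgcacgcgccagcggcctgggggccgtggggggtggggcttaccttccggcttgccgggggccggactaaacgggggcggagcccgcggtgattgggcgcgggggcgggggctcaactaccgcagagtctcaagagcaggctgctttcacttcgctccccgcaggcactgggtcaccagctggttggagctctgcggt

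Both strands were searched for the p53 half-site, for the E-box CACGTG and for the GC box GGGCGG in 14 windows of 9 members. No window of Pmaip1, which lies on chromosome 18, was included, so the counts do not cover it. The p53 half-site matched in 1 of the 14 windows, that of Bax, as AGGCAAGCTT at bases 201 to 192 before the start, and it matched in 8.36% of all 32851 windows of 27025 genes. The E-box matched in 2 of the 14 windows, against 7.15% of all windows. Its 2 matches in the Bax window lay at bases 9 to 4 before the start and 35 to 40 after it, and the other was in the window of the third start of Bbc3, which is not shown. The GC box matched in 10 of the 14 windows, against 35.7% of all windows, and the GC content of the 14 windows ran between 49.3% and 78.0%. A match describes the letters in the window and is not a measured binding site.

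Total counts were 26510081 to 38244117 per library. The atrial muscle genes summed to 26404 to 50684 CPM (counts scaled to library size) in hyperoxic atria and 18266 to 23463 CPM in room-air atria, against 247 to 877 CPM in hyperoxic ventricles and 1062 to 1975 CPM in room-air ventricles. Some libraries stood apart. Hyperoxic atria 2 and 4 and room-air ventricle 4 had a length slope of -0.295, -0.290 and -0.225, against -0.071 to 0.135 in the other 17. The length slope says how log2 CPM changes with log2 exon length over 11133 genes, and a negative one means relatively more reads from short genes. Room-air atrium 1 had 328 CPM of the ventricular gene Myl2, against 7.42 to 15 CPM in the other room-air atria. Y-linked reads outnumbered Xist reads in 13 libraries. These were 1 of 5 hyperoxic atria, all 5 room-air atria, 2 of 5 hyperoxic ventricles and all 5 room-air ventricles. Sex and oxygen were thus largely confounded in the atrium and partly confounded in the ventricle.

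In the left atrium the pro-death side of the family rose in hyperoxia except for Bak1 and Bcl2l11. Bax, Bbc3, Pmaip1 and Bid were higher, by 1.7-fold to 7.23-fold, and Bcl2l11 was lower. On the anti-death side Bcl2l1 rose, Bcl2 fell, and Bcl2l2 and Mcl1 did not pass the test. Of the 10 members 5 were higher, 2 were lower and 3 did not pass, where 43.9% of the 16598 genes tested passed in either direction, 19.7% higher and 24.2% lower. Passing means an adjusted p below 0.05 in edgeR's quasi-likelihood test with Benjamini-Hochberg adjustment over all genes tested. In bulk tissue a change in the number of cells of a type and a change of RNA per cell cannot be told apart.

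**Figure D1:**
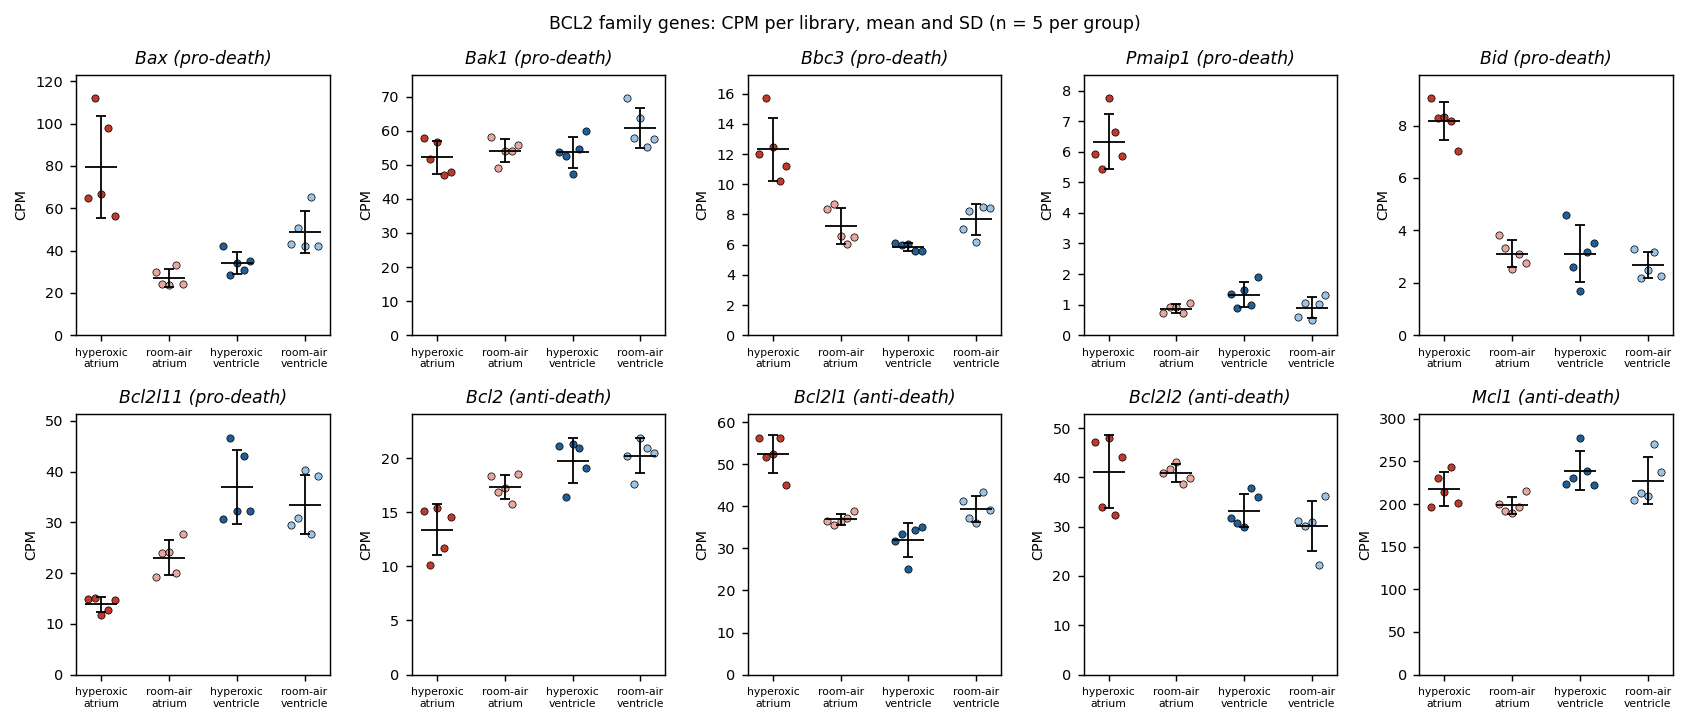
CPM (y axis) of the 10 members in the 20 libraries, grouped on the x axis by chamber and oxygen level, with 5 libraries per group; points are libraries, and the bar with whiskers is the mean with its SD. The hyperoxic atria stand above the room-air atria without overlap for Bax, Bbc3, Pmaip1, Bid and Bcl2l1 and below them for Bcl2l11 and Bcl2.

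The effector Bax lies on chromosome 7 at 45461697 to 45466898 (GRCm38). It measured 64.8, 112, 66.6, 97.9 and 56.3 CPM in hyperoxic atria 1 to 5, against 29.7, 24.4, 23.9, 33.2 and 24.1 CPM in room-air atria 1 to 5. The lowest hyperoxic library stood above the highest room-air library, and hyperoxic atria 2 and 4 were the highest. Bax was 2.94-fold higher, a log2 difference of 1.56 (SE 0.17) with an adjusted p of 3.6e-07 in the edgeR test. Hyperoxic atria 2 and 4 are also the hyperoxic atria with a length slope below -0.2, and Bax is the shortest of the 10 genes by exon length (1576 bases). Without the 3 libraries of such a slope the log2 difference was 1.21, and with the slope and the Y-linked share as covariates it was 0.97. It passed the test in both.

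The second effector, Bak1 (chromosome 17, 27019810 to 27029009), measured 57.7, 51.7, 56.7, 47.1 and 48 CPM in hyperoxic atria, against 58, 49, 53.9, 53.9 and 55.7 CPM in room-air atria. The groups overlapped, and the log2 difference was -0.05 with a 95% interval of -0.22 to 0.13. Of its exon bases 18.2% and 7.35% are shared with the 2 annotations of Ggnbp1 on the opposite strand, and whether the counting used the strand is not given in the sources used here. Bax made up 68.9% ± 6.92 of the summed effector RNA per kb of exon in hyperoxic atria, against 43.1% ± 3.48 in room-air atria (SD, n = 5 each). Its share was 76.9% and 76% in hyperoxic atria 2 and 4, of low length slope, and 63.2% to 64.2% in the other hyperoxic atria.

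Among the 4 BH3-only members Pmaip1 (chromosome 18), which encodes NOXA, a protein that mainly neutralises Mcl1, had the largest fold. It measured 5.93, 5.44, 7.75, 6.64 and 5.87 CPM in hyperoxic atria, against 0.737, 0.918, 0.912, 0.724 and 1.07 CPM in room-air atria. Every hyperoxic atrium was several times above every room-air atrium. The fold was 7.23 and the log2 difference 2.85 (SE 0.25, adjusted p = 9.6e-09 in the edgeR test), from 192 to 319 counts per hyperoxic library and 26 to 39 per room-air library. Hyperoxic atrium 2 was the lowest of its group and hyperoxic atrium 4 the second highest, and the log2 difference was 2.90 without the libraries of low length slope.

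Bid (chromosome 6, 120891930 to 120916853), which is cut by caspase-8 and carries the death receptor signal to the mitochondrion, measured 9.04, 8.27, 8.33, 8.18 and 7.04 CPM in hyperoxic atria. It measured 3.83, 3.34, 2.53, 3.1 and 2.74 CPM in room-air atria. The groups did not overlap, and Bid was 2.63-fold higher (log2 1.39, SE 0.20, adjusted p = 6.6e-06 in the edgeR test). Of its exon bases 17.7% are shared with Bcl2l13 on the opposite strand. A stranded kit was used per the labels, but the strand setting of the counting is not given in the sources used here, so this value is uncertain to that extent.

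Bbc3 (chromosome 7, 16308393 to 16318205), which encodes PUMA, a protein that binds all anti-death members, measured 12, 15.7, 12.5, 10.2 and 11.2 CPM in hyperoxic atria. It measured 8.39, 8.69, 6.56, 6.03 and 6.5 CPM in room-air atria. The lowest hyperoxic library was above the highest room-air library. The fold was 1.7 (log2 0.77, SE 0.13, adjusted p = 6.4e-05 in the edgeR test).

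Bcl2l11 (chromosome 2, 128126038 to 128162547), which encodes BIM, went the other way. It measured 14.9, 15.1, 11.8, 12.7 and 14.7 CPM in hyperoxic atria, against 19.3, 24, 24.1, 20 and 27.7 CPM in room-air atria. All 5 hyperoxic libraries were below all 5 room-air libraries. The level was 0.601 of that in room air (log2 -0.73, SE 0.14, adjusted p = 0.0002 in the edgeR test). In the fit with only the libraries in which Y-linked reads outnumbered Xist reads, the log2 difference was -0.51. That fit keeps only hyperoxic atrium 2 from its group, a library of low length slope. With the Y-linked share and the length slope as covariates the difference was -0.29 and did not pass (adjusted p = 0.34 in the edgeR test).

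The makeup of the BH3-only RNA therefore differed between the groups. Per kb of exon the 4 genes summed to 12.1 ± 1.01 CPM per kb in hyperoxic atria and 7.47 ± 0.706 CPM per kb in room-air atria (SD, n = 5 each). Bcl2l11 was 14.2% ± 1.71 of this sum in hyperoxic atria and 38.5% ± 5.34 in room-air atria. Bbc3 exceeded Bcl2l11 per kb by 3.38 ± 0.538 times in hyperoxic atria and by 1.21 ± 0.297 times in room-air atria. No test was made of these shares and ratios, because the members were chosen with results known.

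On the anti-death side Bcl2l1 (chromosome 2, 152780668 to 152831728) measured 56.4, 51.8, 52.6, 56.2 and 45.2 CPM in hyperoxic atria, against 36.6, 35.5, 36.5, 37.2 and 38.9 CPM in room-air atria. The groups did not overlap, and hyperoxic atrium 5 was the lowest of its group. Bcl2l1 was 1.42-fold higher (log2 0.51, SE 0.09, adjusted p = 8.7e-05 in the edgeR test). The counts are per gene, so the long BCL-XL form and the short BCL-XS form, which promotes death, are counted together. The same limit holds for the splice forms of Mcl1 and Bcl2l11.

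Bcl2 (chromosome 1, 106538178 to 106714274), the founding anti-death member, measured 15.1, 10.1, 15.4, 11.7 and 14.6 CPM in hyperoxic atria, against 18.3, 16.9, 17.2, 15.8 and 18.5 CPM in room-air atria. The groups did not overlap, and hyperoxic atria 2 and 4 were the lowest libraries. The level was 0.772 of that in room air (log2 -0.37, SE 0.11, adjusted p = 0.0091 in the edgeR test). Bcl2 is the longest of the 10 genes by exon length (9157 bases). Without the 3 libraries of low length slope the log2 difference was -0.21 and did not pass (adjusted p = 0.1), and it did not pass with the slope as covariate either (-0.21, adjusted p = 0.11). It passed with the slope and the Y-linked share as covariates (-0.48, adjusted p = 0.013 in the edgeR test). With only the libraries of more Y-linked than Xist reads the log2 difference was -0.68. That fit keeps only hyperoxic atrium 2 from its group, which has a low length slope and the lowest Bcl2 value.

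Bcl2l2 (chromosome 14, 54883377 to 54888234) measured 47.1, 34.1, 48.1, 32.3 and 44.2 CPM in hyperoxic atria, against 41, 41.8, 43.2, 38.7 and 39.8 CPM in room-air atria. Hyperoxic atria 2 and 4 were below all room-air atria and the other 3 were above all of them, so the group means differed by a log2 of only 0.01 (95% interval -0.24 to 0.26). With the length slope as covariate the log2 difference was 0.25 and passed (adjusted p = 0.027 in the edgeR test). It did not pass without the 3 libraries of low length slope (0.18, adjusted p = 0.087) or with the slope and the Y-linked share as covariates (0.31, adjusted p = 0.1). Mcl1 (chromosome 3, 95658788 to 95663176) measured 197, 231, 214, 244 and 201 CPM in hyperoxic atria, against 200, 192, 189, 197 and 215 CPM in room-air atria. These overlapped, and the log2 difference was 0.13 (95% interval -0.06 to 0.32).

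**Figure D2:**
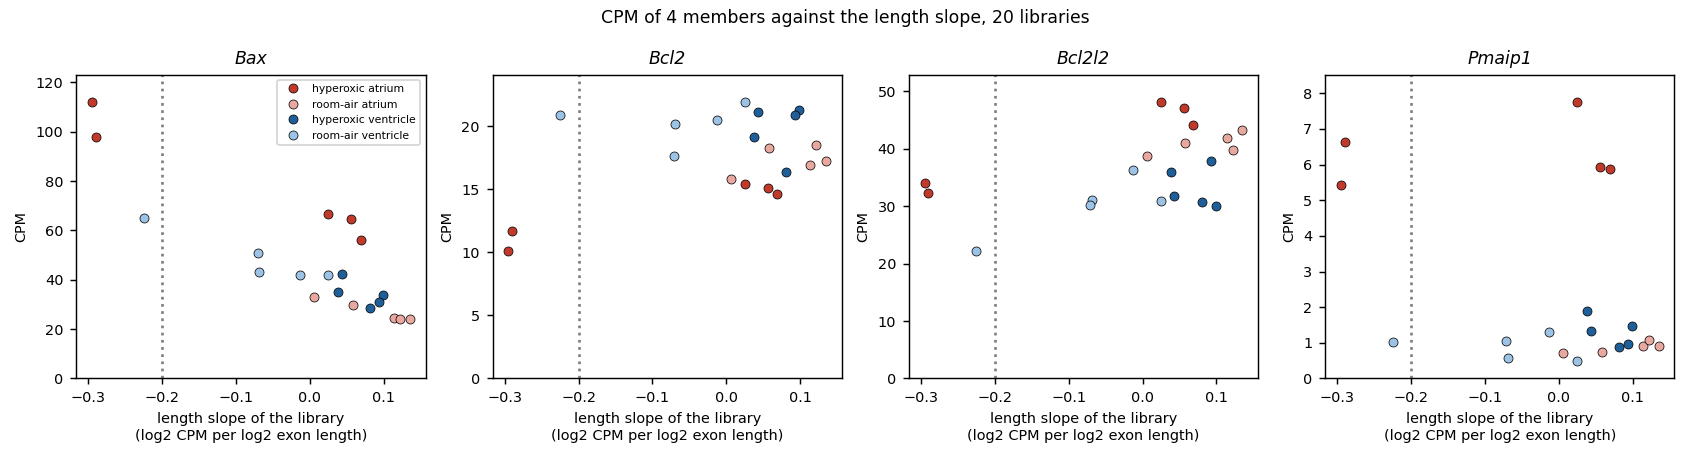
CPM (y axis) of Bax, Bcl2, Bcl2l2 and Pmaip1 in the 20 libraries against the length slope of the library (x axis, log2 CPM per log2 exon length); colours are the 4 groups and the dotted line is at -0.2. Left of the line lie hyperoxic atria 2 and 4 and room-air ventricle 4, which hold the highest Bax and the lowest Bcl2l2 values of their groups, while Pmaip1 in hyperoxic atria 2 and 4 is 5.44 and 6.64 CPM, against 5.87 to 7.75 CPM in the other 3 hyperoxic atria.

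The plot of CPM against the length slope shows which of these values moved with the tilt of a library. The 3 libraries left of -0.2 held the highest Bax and the lowest Bcl2l2 values of their groups. Bcl2 was lowest in hyperoxic atria 2 and 4 but not in room-air ventricle 4, where it measured 20.9 CPM in a group of 17.6 to 21.9 CPM. Over the other 3 hyperoxic atria alone, Bax measured 56.3 to 66.6 CPM, still above the 23.9 to 33.2 CPM of room-air atria. The part of the tilt in these differences was not tested beyond the fits given.

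The 6 pro-death genes had a median log2 difference of 1.08 in the atrium, with 4 higher, 1 lower and 1 not passing. The 4 anti-death genes had a median of 0.07, with 1 higher, 1 lower and 2 not passing. The median over all genes tested was -0.06. Non-overlapping groups were found for the 7 members that passed, and for 32.9% of all genes tested. Summed per kb of exon, the pro-death genes stood to the anti-death genes as 0.981 ± 0.145 in hyperoxic atria and 0.611 ± 0.0419 in room-air atria (SD, n = 5 each). The ranges were 0.835 to 1.22 and 0.561 to 0.655 and did not overlap. The highest ratios, 1.22 and 1.01, were those of hyperoxic atria 2 and 4, of low length slope. Bax was the largest part of the difference in the pro-death sum. That sum averaged 84.4 CPM per kb in hyperoxic atria and 47.1 in room-air atria, of which Bax was 50.5 and 17.2. Mcl1 was 74.1% ± 3.13 of the anti-death sum in hyperoxic atria and 75.2% ± 0.921 in room-air atria.

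The ratio of Bax to single anti-death members moved by different amounts. Bax to Bcl2, a ratio often quoted in studies of cell death, was 37.2 ± 18.7 in hyperoxic atria and 9.14 ± 1.85 in room-air atria per kb of exon (SD, n = 5 each). Its largest values were in hyperoxic atria 2 and 4, and the difference of its log2 values was 1.91 with all libraries and 1.42 without those of low length slope. The alternative without those libraries was chosen after seeing the data for this ratio. Bax to Bcl2l1 was 4.41 ± 1.26 in hyperoxic atria and 2.13 ± 0.336 in room-air atria. Bax to Mcl1 was 0.785 ± 0.18 in hyperoxic atria and 0.296 ± 0.048 in room-air atria, so Mcl1 RNA still exceeded Bax RNA in the mean of either group.

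**Figure D3:**
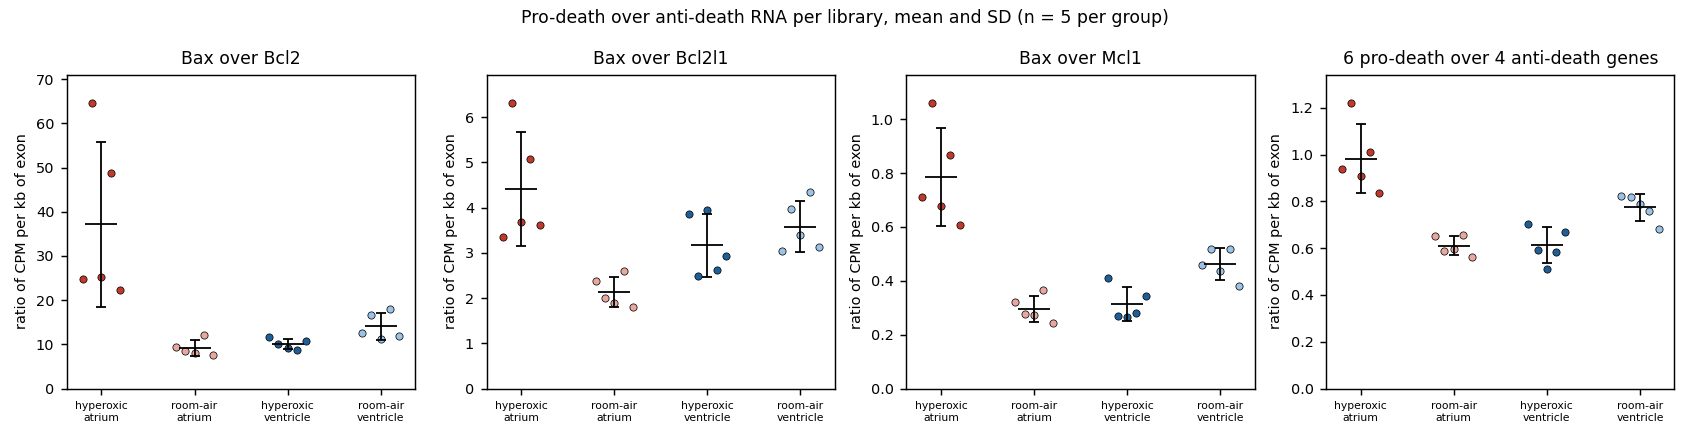
Ratio of CPM per kb of exon (y axis) per library for Bax over Bcl2, Bax over Bcl2l1, Bax over Mcl1 and the sum of the 6 pro-death over the sum of the 4 anti-death genes, by group on the x axis; points are libraries and the bar with whiskers is the mean with its SD (n = 5). The hyperoxic atria are above the room-air atria in all 4 panels, and the hyperoxic ventricles are on average below the room-air ventricles.

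In the left ventricle Bcl2l1 fell in hyperoxia, and the other 9 members did not pass the edgeR test, where 10.9% of all genes passed in either direction, 5.64% higher and 5.28% lower. Bcl2l1 measured 31.8, 33.4, 25.1, 34.4 and 35 CPM in hyperoxic ventricles 1, 2, 4, 5 and 6, against 41.4, 37.2, 36, 43.5 and 39.1 CPM in room-air ventricles 1 to 5. The groups did not overlap. The level was 0.81 of that in room air (log2 -0.30, SE 0.09, adjusted p = 0.033 in the edgeR test). The call did not hold in 12 of 23 other fits, among them those with the length slope (-0.25) or the Y-linked share (-0.25) as covariate.

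Bax measured 42.2, 28.5, 34, 31 and 35.2 CPM in hyperoxic ventricles, against 43.3, 50.7, 42.1, 65.1 and 42 CPM in room-air ventricles. The groups overlapped through hyperoxic ventricle 1, and room-air ventricle 4, the one of low length slope, was the highest. The log2 difference was -0.51 with a 95% interval of -0.87 to -0.15 and an adjusted p of 0.057 in the edgeR test. Without the libraries of low length slope it was -0.38 and passed (adjusted p = 0.017). With the slope as covariate it was -0.15 (adjusted p = 0.28), and with the slope and the Y-linked share it was -0.21 (adjusted p = 0.21).

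Bbc3 measured 6.12, 6, 6.04, 5.55 and 5.56 CPM in hyperoxic ventricles, against 7.07, 8.24, 6.15, 8.5 and 8.46 CPM in room-air ventricles. The groups did not overlap, as was the case for 12.4% of all genes tested, though the highest hyperoxic and the lowest room-air library nearly met. The log2 difference of -0.39 did not pass (adjusted p = 0.061 in the edgeR test). Pmaip1 measured 1.34, 0.89, 1.48, 0.973 and 1.9 CPM in hyperoxic ventricles and 0.586, 1.06, 0.499, 1.03 and 1.3 CPM in room-air ventricles. These overlapped, and the log2 difference was 0.56 (95% interval 0.03 to 1.09, adjusted p = 0.15), from 15 to 52 counts per library.

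The other 6 members overlapped between the ventricle groups. Bcl2l11 averaged 37 ± 7.34 CPM in hyperoxic ventricles and 33.5 ± 5.9 CPM in room-air ventricles, with a log2 difference of 0.14 (95% interval -0.14 to 0.42). Bak1 averaged 53.6 ± 4.49 and Bid 3.11 ± 1.08 CPM in hyperoxic ventricles, against 60.7 ± 5.82 and 2.68 ± 0.507 CPM in room-air ventricles (SD, n = 5 each). Bcl2, Bcl2l2 and Mcl1 differed by a log2 of -0.03, 0.14 and 0.07, and the widest of their 95% intervals was -0.11 to 0.40. The summed pro-death to anti-death ratio per kb was 0.613 ± 0.0758 in hyperoxic ventricles and 0.775 ± 0.058 in room-air ventricles. Its pro-death sum averaged 52.7 CPM per kb in hyperoxic ventricles and 65 in room-air ventricles, of which Bax was 21.7 and 30.9.

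**Figure D4:**
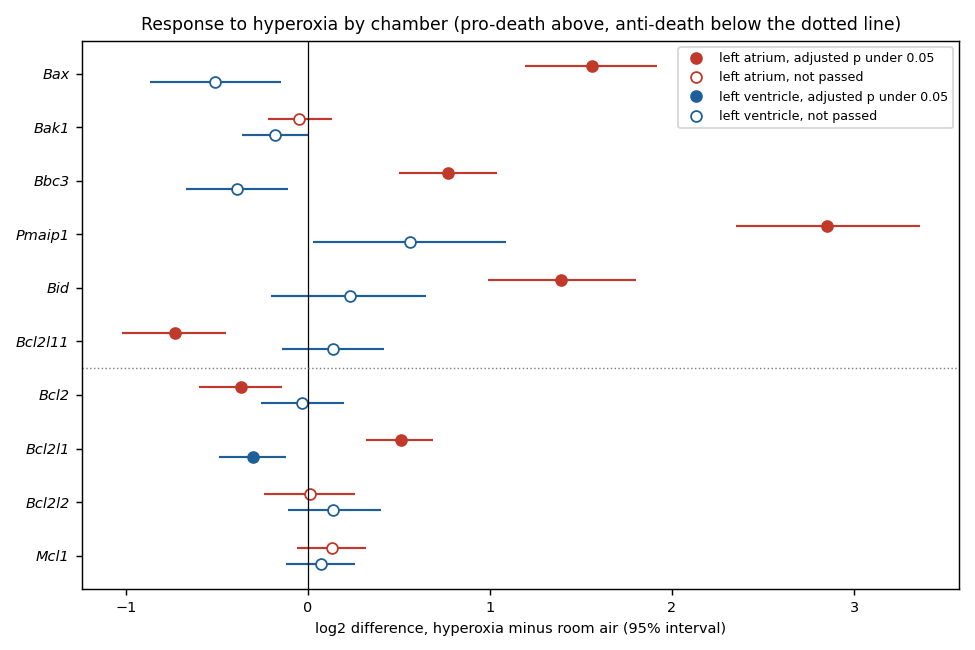
Log2 difference of hyperoxia minus room air (x axis) for the 10 members (y axis) in atrium and ventricle, from the edgeR fit over 20 libraries; lines are 95% intervals, filled points passed at an adjusted p under 0.05 and open points did not. In the atrium 7 points are filled, from -0.73 for Bcl2l11 to 2.85 for Pmaip1, and in the ventricle only Bcl2l1 at -0.30.

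The difference between the responses of the chambers was tested in the same fit. It passed for 6 of the 10 members, 5 with a more positive response in the atrium and 1 with a more negative one, where 36.5% of all genes passed in either direction, 17.0% more positive and 19.5% more negative. The atrial response minus the ventricular response was 2.29 for Pmaip1 (SE 0.35, adjusted p = 6.3e-05), 2.06 for Bax (SE 0.24, adjusted p = 3.7e-06) and 1.17 for Bid (SE 0.28, adjusted p = 0.0032) on the log2 scale in the edgeR test. It was 1.16 for Bbc3 (SE 0.19, adjusted p = 0.00011), 0.81 for Bcl2l1 (SE 0.13, adjusted p = 7.2e-05) and -0.88 for Bcl2l11 (SE 0.20, adjusted p = 0.0018). For Bak1, Bcl2, Bcl2l2 and Mcl1 it did not pass, and for Bcl2 it was -0.34 with a 95% interval of -0.66 to -0.01 (adjusted p = 0.093). For Bcl2 it passed with the replicate block within each oxygen group (-0.42, adjusted p = 0.033) and with the Y-linked share as covariate (-0.41, adjusted p = 0.018). Bax, Bbc3 and Bcl2l1 had fitted responses above 0 in the atrium and below 0 in the ventricle, where of the 3 only that of Bcl2l1 passed.

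Fewer members differed between the chambers in room air than in hyperoxia. In room air 3 of the 10 members passed between atrium and ventricle, 1 higher and 2 lower in the atrium, where 55.0% of all genes passed, 28.7% higher and 26.3% lower. Bax was lower in the atrium (log2 -0.85, SE 0.17, adjusted p = 0.00029 in the edgeR test), Bcl2l11 was lower (-0.54, SE 0.14, adjusted p = 0.0021) and Bcl2l2 was higher (0.44, SE 0.12, adjusted p = 0.0043). Bax and Bcl2l2 did not overlap between the chambers, as was the case for 46.5% of all genes, while Bcl2l11 did. The count of 3 was not stable, and it reached 7 in the fit with only the libraries in which Y-linked reads outnumbered Xist reads.

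In hyperoxia 8 members passed between atrium and ventricle, 6 higher and 2 lower in the atrium, where 48.8% of all genes passed, 25.2% higher and 23.6% lower. Bax was now higher in the atrium (log2 1.22, SE 0.17, adjusted p = 4e-06 in the edgeR test), as were Pmaip1 (2.26), Bid (1.38), Bbc3 (1.07), Bcl2l1 (0.72) and Bcl2l2 (0.31). Bcl2l11 (-1.42) and Bcl2 (-0.56) were lower in the atrium. Apart from Bcl2l2, the members that passed did not overlap between the chambers, as was the case for 32.9% of all genes. The call for Bcl2l2 had an adjusted p of 0.041 and was lost in 12 other fits. These comparisons share their libraries with the oxygen comparisons, so they restate the same values from another side.

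Levels of different genes were compared per kb of exon. Mcl1 had the highest mean level in all 4 groups, at 63.6 ± 5.83 CPM per kb in hyperoxic atria, 58.1 ± 2.87 in room-air atria, 69.9 ± 6.77 in hyperoxic ventricles and 66.6 ± 8.11 in room-air ventricles. In hyperoxic atria Bax came next at 50.5 ± 15.3 CPM per kb, and its range overlapped with that of Mcl1, which was not so in the other groups. The overlap came from hyperoxic atria 2 and 4, of low length slope, with 71.3 and 62.1 CPM per kb of Bax. In the other hyperoxic atria Bax was 35.7 to 42.3 CPM per kb, below the lowest Mcl1 value of 57.8. In room-air atria and in hyperoxic ventricles Bak1 stood above Bax, at 22.5 ± 1.38 against 17.2 ± 2.68 and at 22.3 ± 1.87 against 21.7 ± 3.3 CPM per kb, with overlapping ranges in both.

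At the low end Pmaip1 was the lowest member in room-air atria (0.319 ± 0.0526 CPM per kb), hyperoxic ventricles (0.482 ± 0.15) and room-air ventricles (0.327 ± 0.124), and in hyperoxic ventricles its range overlapped with that of Bid. In hyperoxic atria Pmaip1 (2.32 ± 0.331) and Bid (2.3 ± 0.202) lay above Bcl2l11 (1.72 ± 0.188) and Bcl2 (1.46 ± 0.256). In ventricles of either oxygen level Bcl2l11 was the most abundant of the 4 BH3-only members, at 4.6 ± 0.914 CPM per kb in hyperoxic ventricles and 4.17 ± 0.734 in room-air ventricles, though in room air its range overlapped with that of Bbc3. In atria Bbc3 was the most abundant of the 4, at 5.8 ± 0.97 CPM per kb in hyperoxic atria and 3.41 ± 0.572 in room-air atria, the second overlapping with Bcl2l11.

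Of 16 other BCL2 family proteins 11 were tested, and in the atrium 2 were higher, 3 were lower and 6 did not pass (median -0.07, all genes -0.06), where 43.9% of all genes passed, 19.7% higher and 24.2% lower. Hrk, a BH3-only gene best known from neurons, had 67, 41, 54, 59 and 56 counts in hyperoxic atria 1 to 5, against 1, 3, 3, 0 and 0 counts in room-air atria 1 to 5. All hyperoxic atria were far above all room-air atria, with a ratio of the group totals (277 and 7 counts) of 40.9 and an exact 95% interval of 19.6 to 103 that covers counting error only. The BH3-only gene Bmf was lower (10.5 ± 2.34 CPM in hyperoxic atria, 20.4 ± 2.36 in room-air atria, log2 -0.96, adjusted p = 0.00098 in the edgeR test). The mitophagy receptors Bnip3 (log2 -0.91) and Bnip3l (-0.57) were lower as well. In the ventricle 1 was higher and 3 were lower, where 5.64% of all genes were higher and 5.28% lower. Bok, an effector-like member, had -0.59 (adjusted p = 0.015 in the edgeR test) and Bcl2l13, another mitophagy receptor, had 0.48 (adjusted p = 0.008).

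Of 19 genes of the p53 list 18 were tested, and in the atrium 13 were higher, none was lower and 5 did not pass (median 1.03, all genes -0.06). The shares over all genes tested were 19.7% higher and 24.2% lower there. The cell cycle inhibitor Cdkn1a averaged 238 ± 24 CPM in hyperoxic atria and 45.4 ± 3.17 CPM in room-air atria (log2 2.39, SE 0.11, adjusted p = 3.1e-12 in the edgeR test). Sesn2, a stress-induced regulator of mTORC1, rose by a log2 of 2.51, Eda2r, a receptor of the TNF family, by 2.38 and the nuclease Aen by 1.85. Trp53 itself had a log2 difference of 0.06 (adjusted p = 0.64). In the ventricle 4 of the 18 were higher and none was lower, where 5.64% of all genes were higher and 5.28% lower. Among the 4 were Sesn2 at 0.65 (adjusted p = 0.0017 in the edgeR test) and Eda2r at 0.63 (adjusted p = 0.023). Cdkn1a differed by -0.05 (adjusted p = 0.8). Bax, Bbc3 and Pmaip1 were not counted in this list.

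Of 8 stress factors known to act on BH3-only genes 4 were higher and 2 were lower in the atrium (median 0.33, all genes -0.06). The shares over all genes tested were 19.7% higher and 24.2% lower there. Ddit3, which encodes the stress factor CHOP, averaged 111 ± 51.7 CPM in hyperoxic atria and 19.3 ± 2.6 CPM in room-air atria (log2 2.53, adjusted p = 2e-08 in the edgeR test). Its partner Atf4 rose by a log2 of 1.65 and the pseudokinase Trib3, a target of both, by 4.76 (adjusted p = 3.1e-12), while Jun fell by 0.97. In the ventricle 2 of the 8 passed, where 10.9% of all genes did. Both were higher, Trib3 at 1.03 (adjusted p = 0.0067 in the edgeR test) and the oxygen-sensing factor Hif1a at 0.54 (adjusted p = 0.024).

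**Figure D5:**
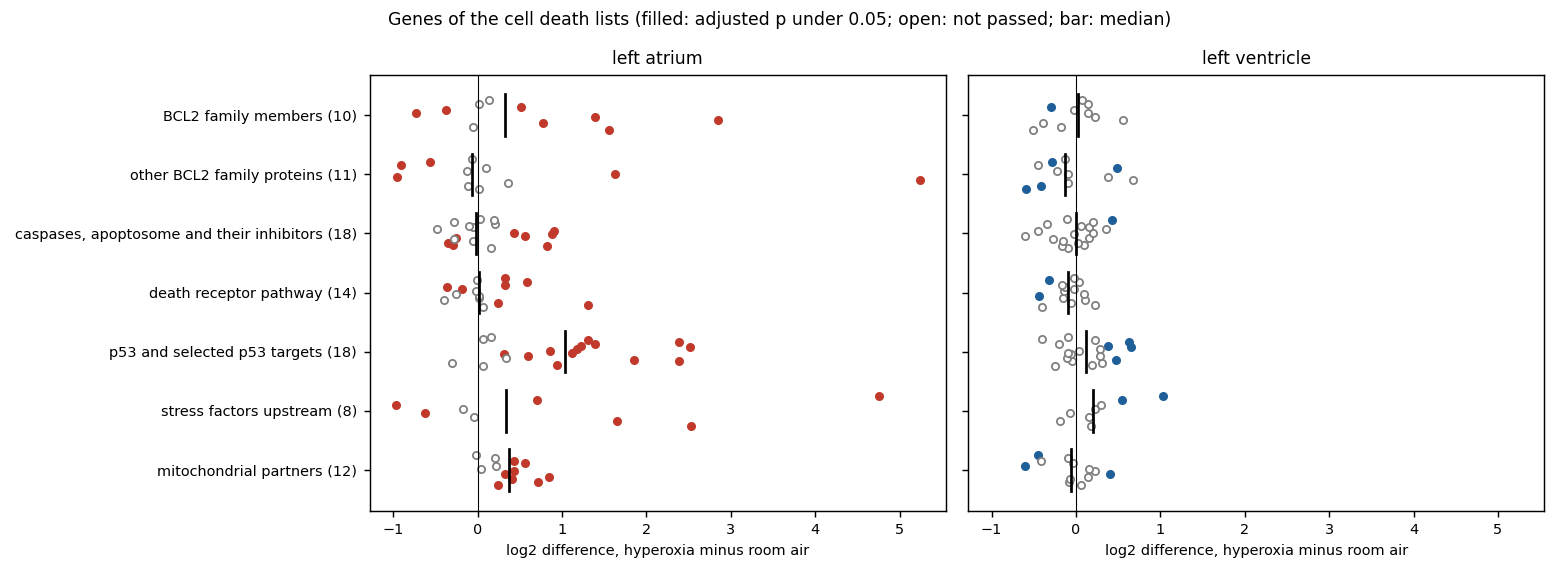
Log2 difference of hyperoxia minus room air (x axis) for the members and for the genes of 6 lists around them (y axis, number tested in brackets), in atrium and ventricle; filled points passed at an adjusted p under 0.05, open points did not, and the bar is the median of the list. The median of the p53 list lies at 1.03 in the atrium and 0.12 in the ventricle, and those of the caspase and death receptor lists lie near 0 in both.

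Downstream of the mitochondrion, 18 caspase and apoptosome genes and their inhibitors split into 5 higher, 3 lower and 10 not passing in the atrium (median -0.01), so 8 of 18 passed, where 43.9% of all genes did. In the fit with both covariates, length slope and Y-linked share, 2 of the 18 passed. Those that rose were Cycs (cytochrome c, log2 0.82), Htra2 (0.88), Aifm1 (0.43), Endog (0.90) and Diablo (0.56). Diablo overlapped between the groups, at 8.64 to 20.3 CPM in hyperoxic atria and 7.97 to 10.3 CPM in room-air atria. Endog nearly met, with a lowest hyperoxic value of 15.9 CPM and a highest room-air value of 15.7 CPM. The caspase genes Casp9 (-0.29) and Casp2 (-0.26) were among those that fell. Diablo, Casp9 and Casp2 were named for the atrium after their values were seen. In the ventricle 1 of the 18 passed, where 10.9% of all genes did. It was the nuclease inhibitor Dffa (0.43, adjusted p = 0.015 in the edgeR test), and Diablo had -0.61 (adjusted p = 0.072).

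Of 12 mitochondrial partners of the family 8 were higher and none was lower in the atrium (median 0.36, all genes -0.06). The shares over all genes tested were 19.7% higher and 24.2% lower there. They included Ppif, which encodes cyclophilin D (log2 0.84, adjusted p = 5.7e-07 in the edgeR test), the channel Vdac2 (0.72), which is known to bind BAK, Mtch2 (0.56), a receptor for BID, and the fission GTPase Dnm1l (0.43). In the ventricle the fusion GTPase Opa1 was higher (0.40) and the fission adaptor Fis1 (-0.61) and Ywhaz (-0.45), which encodes a 14-3-3 protein, were lower. Fis1 was named after its value was seen. It spread over 125 to 224 CPM in room-air ventricles, against 98 to 115 CPM in hyperoxic ventricles. The counts of this list and of the stress factor list were not repeated in the other fits.

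Of 15 death receptor genes 14 were tested, and in the atrium 5 were higher, 2 were lower and 7 did not pass (median 0.01), where 43.9% of all genes passed. In the fit with both covariates, length slope and Y-linked share, 3 of the 14 passed. Tnfrsf10b, the TRAIL receptor and also a gene of the p53 list, averaged 22.9 ± 4.69 CPM in hyperoxic atria and 9.24 ± 1.44 CPM in room-air atria (log2 1.31, adjusted p = 4.4e-07 in the edgeR test). The adaptors Traf2 (0.58) and Dedd (0.32) and the kinase Dapk3 (0.32) were higher too. In the ventricle none was higher and 2 were lower, the adaptors Tradd (-0.44) and Bcl10 (-0.32). Over all genes 5.64% were higher and 5.28% lower there.

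Markers of some other cell types differed between the oxygen groups. Over all genes tested 19.7% were higher and 24.2% lower in the atrium, and 5.64% and 5.28% in the ventricle. In the atrium 7 of 7 endothelial markers were lower, with summed levels of 625 to 826 CPM in hyperoxic atria and 996 to 1178 CPM in room-air atria. Of 6 fibroblast markers 5 were lower and 1 higher, with sums of 4395 to 6167 CPM in hyperoxic atria and 9009 to 10140 CPM in room-air atria. Of 7 macrophage markers 5 were higher and none lower, with sums of 207 to 333 CPM in hyperoxic atria and 159 to 168 CPM in room-air atria. None of the markers of these 3 types was at 0 in all libraries of a group. Smooth muscle and pericyte markers split into 2 higher and 4 lower in the atrium. Further types there had 3 of 4 neutrophil, 1 of 4 epicardial, 1 of 6 lymphocyte and 0 of 6 erythroid markers higher, and none lower. In the ventricle 4 of 7 endothelial markers were lower, with sums of 1420 to 1627 CPM in hyperoxic ventricles and 1856 to 2070 CPM in room-air ventricles. There 1 of 7 macrophage markers was higher and 0 of 6 fibroblast markers passed. Of 6 atrial muscle markers 1 was higher and 2 were lower in the ventricle (median log2 -1.74), and 2 of 6 erythroid markers were lower. Of the ventricular muscle markers 1 of 5 was higher, and 1 of 6 smooth muscle and pericyte and 1 of 4 epicardial markers were lower. The part of these cell types in the members' differences was not tested.

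The genes most like a member were sought among 10957 genes by the root mean square difference of log2 CPM, each gene centred on its mean, over the 20 libraries. For Bax they were Snhg6 (0.15), Snhg12 (0.17) and Snhg1 (0.19), all host genes of small nucleolar RNAs, where the median over all genes compared was 0.72. For Bbc3 they were Emcn (0.18), Sqstm1 (0.19) and Fbxw9 (0.20), with a median of 0.53. For Bcl2 they were Itpripl2, Fam107b and Septin9 (0.12 each, median 0.41), and for Bcl2l1 they were Leprotl1 (0.11), Lrrc28 (0.12) and Tex264 (0.12, median 0.43). The libraries share depth, length slope and chamber, so likeness over them is a description.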

How the data were processed

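Each of the 20 libraries has 1 deposited table of whole-number read counts by gene symbol, which the authors did not normalize. Per the submitters' processing notes the build was GRCm38.p6 and the tools were STAR 2.7.6a, featureCounts, Salmon 1.3.0, Subread 2.0.1 and fastp 0.20.1. The strand setting is not given in the sources used here. The labels give different RNA extraction kits, Direct-zol for the samples and RNeasy in the series text.

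Analysis used edgeR 4.0.16 under R 4.3.3. The filterByExpr function left 16598 genes, TMM (trimmed mean of M values) set the library scale, and 1 robust quasi-likelihood fit of the 4 group means took all 20 libraries, with a common biological coefficient of variation of 0.183. Every adjusted p is edgeR's, by Benjamini-Hochberg over the genes tested. SE was derived from the F statistic. The procedure was tested on simulated data. CPM per kb divides by all annotated exon bases of GENCODE for GRCm38. No 2 libraries of a group were copies (smallest chi-square per degree of freedom 12.25).

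The members and lists were chosen with earlier results of these data known. All 10 members were described, and from each list up to 4 genes of smallest p in the atrium and 2 in the ventricle were named, apart from those said to be named after their values were seen and Trp53, which was likewise. Some results are not reported here. P-values set each difference against the spread between libraries, which were taken as independent. Sex and a possible sharing of pups between chambers were not part of the fit reported. Alternatives were other scalings, filters and covariates, DESeq2 1.42.0, a replicate block within chamber or within oxygen group and leaving out each library.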

Additional observations from a re-analysis of the deposited data

Results flagged for a closer look

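The response to hyperoxia differed between the chambers, by the test of the difference itself, for 6 members. The atrial minus the ventricular response was 2.06 for Bax, 1.16 for Bbc3, 2.29 for Pmaip1, 1.17 for Bid, -0.88 for Bcl2l11 and 0.81 for Bcl2l1 on the log2 scale. For Bax the value was 1.59 without the 3 libraries of length slope below -0.2 and 1.18 with the slope and the Y-linked share as covariates, and for Pmaip1 it was 2.28 and 2.27. With both covariates Bid (0.89) and Bcl2l11 (-0.47) did not pass, nor did Bcl2l11 with the slope alone (-0.64, adjusted p = 0.059 in the edgeR test). With only the libraries of more Y-linked than Xist reads Bcl2l11 was -0.74. That fit keeps only hyperoxic atrium 2 from its group. None of the 40 sets of 5 values, 1 per member and group, held a library beyond Dixon's critical value of 0.71. This statistic looks for a single outlying value. Libraries that deviate together, as hyperoxic atria 2 and 4 did for Bax and Bcl2l2, can escape it.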

How the results depend on the processing

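In the atrium 7 members passed in the fit reported, and 6 to 7 in 22 others. Bcl2 was lost with the length slope as covariate and without the 3 libraries of low slope (-0.21 in both), and Bcl2l11 with only the libraries of more Y-linked reads (-0.51) and with both covariates (-0.29). The fit of libraries with more Y-linked reads keeps 1 hyperoxic atrium, library 2 with a length slope of -0.295. That group is assumed to vary like the other groups. The number of all genes passing was 3593 with both covariates, against 7291. Pro-death over anti-death counts with no length scale gave a log2 difference of 0.43, against 0.68.

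In the ventricle the 1 passing member became 0 with no filter on low counts, the length slope, the Y-linked share, only libraries of more Y-linked reads, both covariates or Myl7 as covariate, 2 without the 3 libraries, 3 in DESeq2 and 0 to 2 when 1 library was left out. All genes passing there, 1813 in the fit reported, were 1021 with no filter, 3339 without the 3 libraries, 200 with the Y-linked share, 304 with only libraries of more Y-linked reads, 951 with both covariates, 115 with Myl7 and 2792 in DESeq2, and 949 to 1851 when 1 library was left out. For the difference between responses 6060 became 2625 with the length slope and 2292 with both covariates. Between chambers in room air 3 members became 6 with upper-quartile scaling or the CPM filter, 5 with only the libraries compared, the length slope or without the 3 libraries, and 7 with only libraries of more Y-linked reads. With both covariates the lists gave 0 other BCL2 genes in the ventricle (4 reported), 2 caspase genes in the atrium (8) and 2 in the ventricle (1), 3 death receptor genes in the atrium (7) and 2 p53 genes in the ventricle (4), and without the 3 libraries 5 caspase genes in the ventricle.

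Signs changed for differences near 0. Bak1 in the atrium (-0.05) was 0.03 with the CPM filter, 0.01 with only the libraries compared, 0.00 with the length slope, without the 3 libraries or with the Y-linked share, 0.03 with only libraries of more Y-linked reads and 0.12 with both covariates. Bcl2l2 in the atrium (0.01) was -0.11 with the Y-linked share, -0.17 with only libraries of more Y-linked reads and -0.05 to 0.08 when 1 library was left out. Mcl1 in the atrium was -0.12 with both covariates. In the ventricle Bcl2 was -0.08 to 0.03 when 1 library was left out, Bcl2l2 was -0.06 with the length slope and -0.03 with both covariates, and Mcl1 was -0.00 with only libraries of more Y-linked reads and -0.02 with Myl7. For the difference between responses Bcl2l2 was 0.31 with the length slope, 0.13 without the 3 libraries and 0.34 with both covariates, and Mcl1 was -0.16, -0.10 and -0.23, and -0.01 to 0.14 when 1 library was left out. Between chambers Pmaip1 in room air was 0.02 without the 3 libraries and -0.19 to 0.14 when 1 library was left out. In hyperoxia Bak1 was 0.01 with the length slope, 0.02 without the 3 libraries, 0.05 with both covariates and -0.08 to 0.01 when 1 library was left out, and Mcl1 was 0.03 with only libraries of more Y-linked reads. The cause of these changes was not tested.

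The labels do not say that a number marks the same pup in both chambers. Correlations of same-numbered libraries ran from -0.133 to 0.285, 5 of 18 were over 0.1 and 8 were the best with their own number. These 18 include pairs of hyperoxic with room-air libraries, which are different mice. Between atrium and ventricle of 1 oxygen level all were positive, at 0.031 to 0.285. Room-air numbers 3, 4 and 5 and hyperoxic numbers 4 and 5 were the best with their own number. In hyperoxia, atria and ventricles 1, 2, 4 and 5 agreed in whether Y-linked reads outnumbered Xist reads. Whether chambers shared pups was thus not settled. The numbers were not used as pairs in the fit reported, which took all libraries as independent. A replicate block by number was fitted within each chamber or within each oxygen group. The block within chamber joins hyperoxic and room-air libraries, which are different mice. With it 0 members and 850 genes passed in the ventricle, Bcl2l2 in the atrium was -0.01 and Bcl2 in the ventricle was 0.00. Bcl2l1 in the ventricle (-0.38, adjusted p = 0.067 in the edgeR test) did not pass. The block within oxygen group joins atria and ventricles. With that block Pmaip1 between chambers in room air was 0.01. The difference between responses of Bcl2 was -0.42 and passed (adjusted p = 0.033 in the edgeR test). Bcl2l2 between chambers in hyperoxia (0.26, adjusted p = 0.074) did not pass.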
